A study of Sus scrofa domesticus with 2 samples.

Results

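Levels of 7 genes, IGFBP2, IGFBP3, IGFBP4, IGFBP5, IGFBP6, IGFBP7 and PAPPA, were measured in cultured pig endothelial cells (ECs) and in the collagen-high cells that grew in the same cultures. The genes were taken by name from the list of genes counted, and all 7 were found among its 22804 genes. In both libraries PAPPA and IGFBP6 were far higher in collagen-high cells than in endothelial-like cells, and IGFBP7 was the most counted of the 7 genes in every class. IGFBP5 was high in the lung collagen-high cluster led by WT1, a transcription factor gene of the mesothelium and kidney podocytes. Within that cluster its level was similar in cells with and without a counted WT1 transcript. IGFBP2 was higher in lung than in aorta endothelial-like cells.

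The data came from single-cell RNA sequencing (scRNA-seq) of domestic pig cells, as 1 library from an aorta EC culture and 1 from a lung EC culture. Cells were released with collagenase from a perfused lung and from the aorta close to it, and both cultures grew in DMEM with 10% fetal calf serum. The cultures were made to look for ECs that take on mesenchymal features, and since they were not sorted, other cells of the vessel wall could grow with the ECs. Tissue for scRNA-seq came from slaughterhouse pigs aged 6 months, a hybrid of Landrace, Large White and Duroc stock, while sex and the number of animals behind each culture were not given in the sources used here, and the labels name no treatment or genetic change in either culture.

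Insulin-like growth factor binding proteins (IGFBPs) are secreted proteins that bind IGF1 and IGF2 and hold them away from their receptor or carry them to it. PAPPA, pregnancy-associated plasma protein A, is a secreted metalloprotease that cuts IGFBP4 and IGFBP5 and so releases bound IGF. IGFBP7 binds IGFs weakly and is known as an abundant product of vascular endothelium, where it is laid down in the basement membrane.

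The places of the genes and the sequences before them were read from the pig genome Sscrofa11.1 with the RefSeq annotation, matched by symbol for all 7 genes, whereas the counts rest on Ensembl gene models of the same build. PAPPA lies on chromosome 1 at 256544496 to 256784813, IGFBP6 on chromosome 5 at 18352884 to 18357225 and IGFBP7 on chromosome 8 at 56283089 to 56357822. IGFBP4 lies on chromosome 12 at 21966524 to 21980043 and IGFBP3 on chromosome 18 at 50002921 to 50009425. IGFBP2, at 118822092 to 118850985, and IGFBP5, at 118861816 to 118877787, are neighbours on chromosome 15, 10830 bases apart with no protein-coding gene between them, and are read towards each other from opposite strands. The 250 bases before the annotated start are printed for the genes on which the results turn. These are 3 that were higher in lung collagen-high than endothelial-like cells (PAPPA, IGFBP5 and IGFBP6) and IGFBP2, the neighbour of IGFBP5, which was lower there. Each is written 5′ to 3′ on the strand of its gene, and capitals mark the GC box GGGCGG on either strand. No other protein-coding gene overlapped these windows, among those whose symbol has 1 place on the chromosomes. Noncoding genes were not checked. The windows are chr1:256544246-256544495 on the plus strand for PAPPA, chr15:118877788-118878037 on the minus strand for IGFBP5, chr5:18352634-18352883 on the plus strand for IGFBP6 and chr15:118821842-118822091 on the plus strand for IGFBP2.
PAPPA: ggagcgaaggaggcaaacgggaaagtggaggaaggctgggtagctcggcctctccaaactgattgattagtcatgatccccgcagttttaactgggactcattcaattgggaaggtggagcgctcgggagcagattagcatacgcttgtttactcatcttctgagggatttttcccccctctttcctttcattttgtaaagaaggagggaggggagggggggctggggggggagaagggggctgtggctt
IGFBP5: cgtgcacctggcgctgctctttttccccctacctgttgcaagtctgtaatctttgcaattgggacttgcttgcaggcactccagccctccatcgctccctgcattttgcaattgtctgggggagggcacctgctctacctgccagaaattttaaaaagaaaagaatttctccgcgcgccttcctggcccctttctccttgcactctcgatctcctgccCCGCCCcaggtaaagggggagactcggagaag
IGFBP6: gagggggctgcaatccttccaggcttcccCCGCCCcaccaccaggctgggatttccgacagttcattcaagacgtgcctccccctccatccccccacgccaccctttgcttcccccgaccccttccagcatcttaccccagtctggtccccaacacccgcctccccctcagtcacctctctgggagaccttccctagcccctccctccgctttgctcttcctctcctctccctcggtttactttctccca
IGFBP2: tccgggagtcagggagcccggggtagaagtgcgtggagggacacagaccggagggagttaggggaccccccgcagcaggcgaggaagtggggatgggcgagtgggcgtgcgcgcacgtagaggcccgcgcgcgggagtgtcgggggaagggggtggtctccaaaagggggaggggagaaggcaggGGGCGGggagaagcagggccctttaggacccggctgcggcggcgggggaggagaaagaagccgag

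The windows of PAPPA (54% G and C) and IGFBP5 (55.2%) lay near the median of 57.6% over the 19505 windows of this length. Those of IGFBP6 (63.2%), IGFBP2 (71.2%), IGFBP7 (78.4%), IGFBP4 (79.2%) and IGFBP3 (82%) were richer in G and C. A GC box was present in 46% of all windows and in those of all members but PAPPA. The TATA motif TATAAA was present in 9.76% of all windows and in none of the 7. The motif GCGNGGGCG, of the EGR and WT1 zinc-finger family, was present in 9.51% of all windows and in those of IGFBP3, IGFBP4 and IGFBP7, searched on both strands, and it overlapped a GC box in IGFBP3 and in IGFBP7. These matches are a description of the letters alone.

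Each transcript was counted once, by its unique molecular identifier (UMI), from its 3′ end. Levels are given as UMIs of the gene per 1000000 UMIs of all genes (CPM), summed over the cells of a class, and ranges in brackets are exact Poisson 95% intervals. They cover counting error only. Because 1 tag was counted per transcript, CPM does not grow with transcript length, but it depends on how well the 3′ end of each gene is annotated, so an order among genes is given within those limits. With 1 library per tissue no test between groups was possible and no p-value is given. A gene was called higher or lower at a fold of 2 or more, where at least 1 of the compared classes reached 20 CPM.

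Cells were kept where over 200 and under 5000 genes were detected, 5683 in the lung (56124100 UMIs, median 9453 per cell) and 246 in the aorta (1825143 UMIs, median 4691). The aorta library was sequenced far deeper per cell, and without the upper limit on genes it held 955 cells with 45215532 UMIs, so aorta values are given both ways. The study states more aorta cells than its own limit leaves here, so the aorta cells below the limit are not the set it described. Of the aorta cells below the limit, 110 had under 1% mitochondrial UMIs, against 39 in the lung. Without the limit, 3 barcode sequences were shared by the libraries, and below it 0 were.

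In the lung, 4932 cells formed endothelial-like clusters, with PECAM1 at 1596 CPM and CDH5 at 157 CPM. The endothelial genes VWF, at 0.357 CPM, and KDR, at 1.73 CPM, were nearly absent there. Clusters with raised COL1A1 and COL1A2, the type I collagen genes, were called collagen-high and held 333 lung cells with COL1A1 at 5344 CPM. These also carried PDGFRB (138 CPM) and ACTA2 (1181 CPM), genes of mural cells, and the genes that led the larger of their 2 clusters held the pericyte markers CSPG4 and PDGFRB and neither type I collagen gene. They are therefore given no cell type and are described by cluster number as well. A further 88 lung cells were immune-like, and 330 shallow cells were left unnamed. In the aorta, 159 cells below the gene limit were endothelial-like, 21 were collagen-high and 66 were ACTA2-high with little collagen. The 159 cells were 87 in a cluster with 10 of 13 endothelial markers raised and 72 in a less deeply counted cluster. That cluster had a median of 2380 UMIs and of 0.213% mitochondrial UMIs. It held 6 of the endothelial markers and raised none of them, but raised 2 of 7 fibroblast markers. Without the limit these classes held 633, 139 and 69 cells, and 114 were left unnamed. The unnamed cells included a shallow cluster of 75 that shared SST, DHRS1 and CDA among its leading genes with the cluster of 72. The endothelial-like classes with and without the limit thus differ in make-up.

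In lung endothelial-like cells IGFBP7 was counted at 1170 CPM (1161 to 1180), in 99.8% of cells. IGFBP3, the main IGF carrier of serum, followed at 26.4 CPM (25.04 to 27.9). IGFBP2 was at 22.5 CPM (21.2 to 23.8) and IGFBP6 at 21.3 CPM (20.1 to 22.6), and these neighbours had overlapping intervals. IGFBP4 was at 9.84 CPM (8.99 to 10.7). IGFBP5, at 2.10 CPM (1.72 to 2.54), and PAPPA, at 2.06 CPM (1.69 to 2.499), overlapped at the bottom of the order. IGFBP7 alone made up 93.3% of all UMIs of the 7 genes in these cells.

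Aorta endothelial-like cells had IGFBP7 and IGFBP3 at the top of the order as well. Below the gene limit IGFBP7 was at 1306 CPM (1245 to 1369), IGFBP3 at 39.1 CPM (29.2 to 51.3), IGFBP6 at 13.5 CPM (8.02 to 21.4) and IGFBP4 at 12.8 CPM (7.44 to 20.5), with overlapping intervals for the last 2 genes. PAPPA was at 2.26 CPM from 3 UMIs. IGFBP2 and IGFBP5 were at 0 in 1330324 UMIs, which allows up to 2.26 CPM. Without the limit IGFBP7 was at 1745 CPM (1731 to 1759), IGFBP3 at 42.7 CPM, IGFBP6 at 18.4 CPM and IGFBP4 at 10.96 CPM. The greater depth then gave levels to the rest, with IGFBP2 at 1.84 CPM (1.42 to 2.35), PAPPA at 1.25 CPM (0.906 to 1.67) and IGFBP5 at 0.142 CPM (0.0460 to 0.331). In the cluster of 87 cells IGFBP7 was at 1342 CPM, IGFBP3 at 43.9 CPM and IGFBP6 at 12.5 CPM, and in the cluster of 72 cells at 1114 CPM, 14.0 CPM and 18.7 CPM. Of the 159 cells, 54 had under 1% mitochondrial UMIs, and with such cells removed IGFBP7 was at 1320 CPM, IGFBP3 at 44.7 CPM, IGFBP4 at 13.7 CPM and IGFBP6 at 9.12 CPM.

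**Figure D1:**
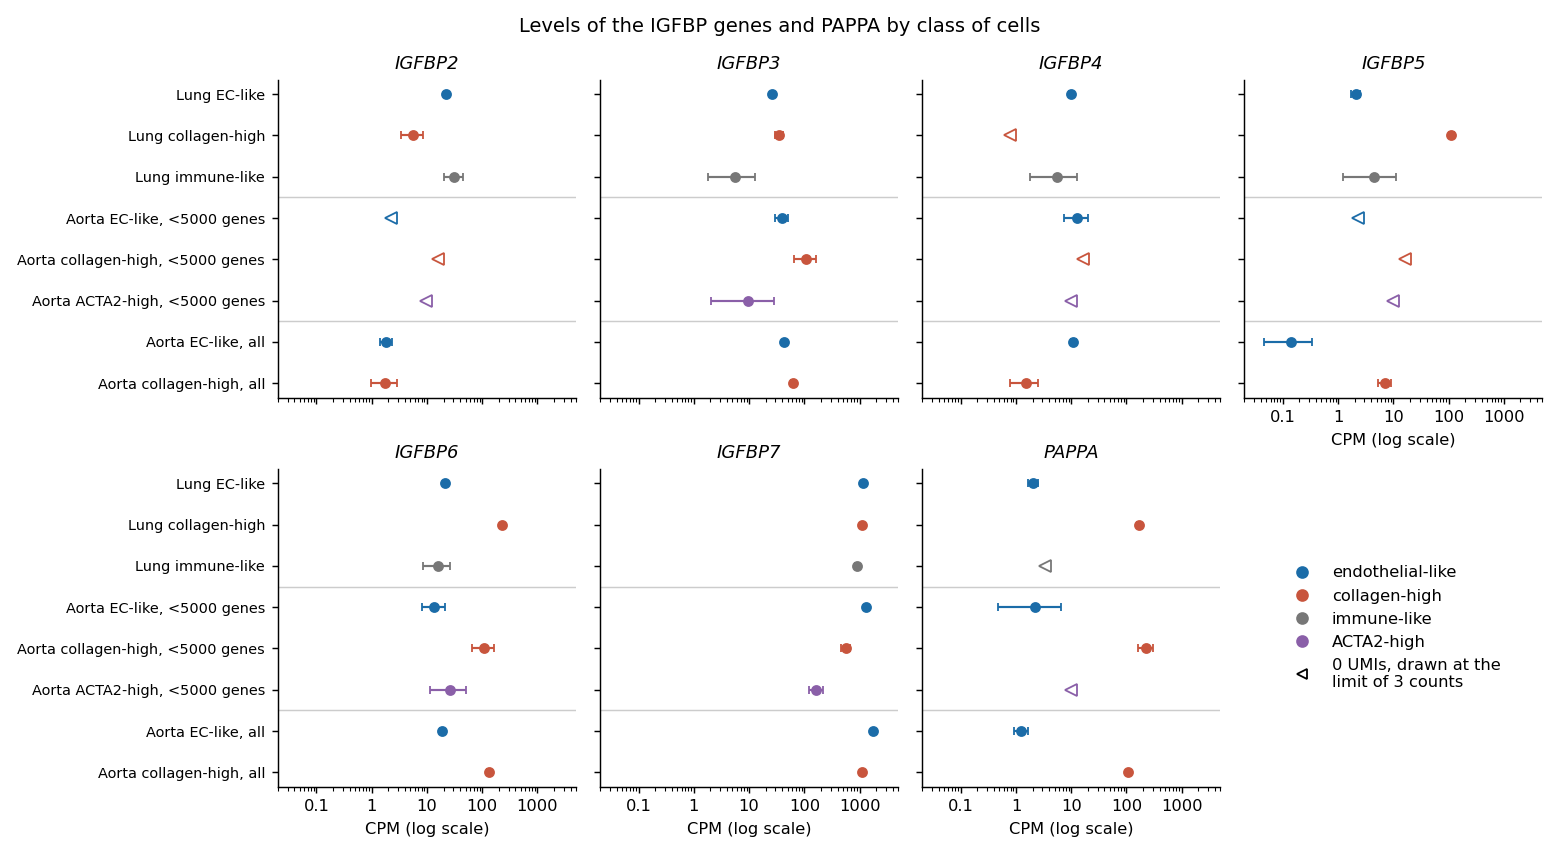
Level of each gene (CPM, log scale) in each class of cells, with points for the summed UMIs, bars for exact Poisson 95% intervals and open triangles at the limit of 3 counts where no UMI was counted. Rows marked <5000 genes hold aorta cells below the gene limit and rows marked all hold aorta cells without it. IGFBP6 and PAPPA sit higher in collagen-high than in endothelial-like cells in both tissues, whereas IGFBP7 is near or above 1000 CPM in both classes except in aorta collagen-high cells below the limit.

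In 1 of the endothelial-like clusters of the lung IGFBP7, IGFBP3, IGFBP5 and PAPPA were all higher than in the others. In the lung, IGFBP7 ranged from 960 CPM to 1174 CPM in 6 of the 7 endothelial-like clusters. The other cluster, with 753 cells led by MGP, SLPI, CRYAB and CFD, was at 1728 CPM (1699 to 1758). IGFBP3 was also highest there, at 49.3 CPM (44.5 to 54.5), against 17.0 CPM to 28.5 CPM in the other endothelial-like clusters. PAPPA was at 5.42 CPM (3.91 to 7.33) in this cluster and at 1.08 CPM to 1.78 CPM in the others, and IGFBP5 at 4.13 CPM against 0.635 CPM to 2.52 CPM. The IGFBP5 levels rest on few cells. Its 106 UMIs in all lung endothelial-like cells came from 57 cells, with up to 13 UMIs in a cell. IGFBP2 ranged from 17.5 CPM to 28.6 CPM, IGFBP6 from 16.1 CPM to 24.7 CPM and IGFBP4 from 6.30 CPM to 12.7 CPM among the 7 clusters, which included clusters led by S phase and by G2M genes.

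In the aorta without the gene limit IGFBP7 and IGFBP3 were again highest in the same cluster. IGFBP7 was at 2358 CPM (2331 to 2385) and IGFBP3 at 64.4 CPM (60.0 to 69.0) in a cluster of 239 cells led by CXCL10, CCL5, SLPI and CFD. In the other 3 endothelial-like clusters IGFBP7 was between 1360 CPM and 1472 CPM and IGFBP3 between 24.0 CPM and 39.2 CPM. The clusters are sets of cells from 1 library and were formed with these 7 genes left out of the clustering.

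**Figure D2:**
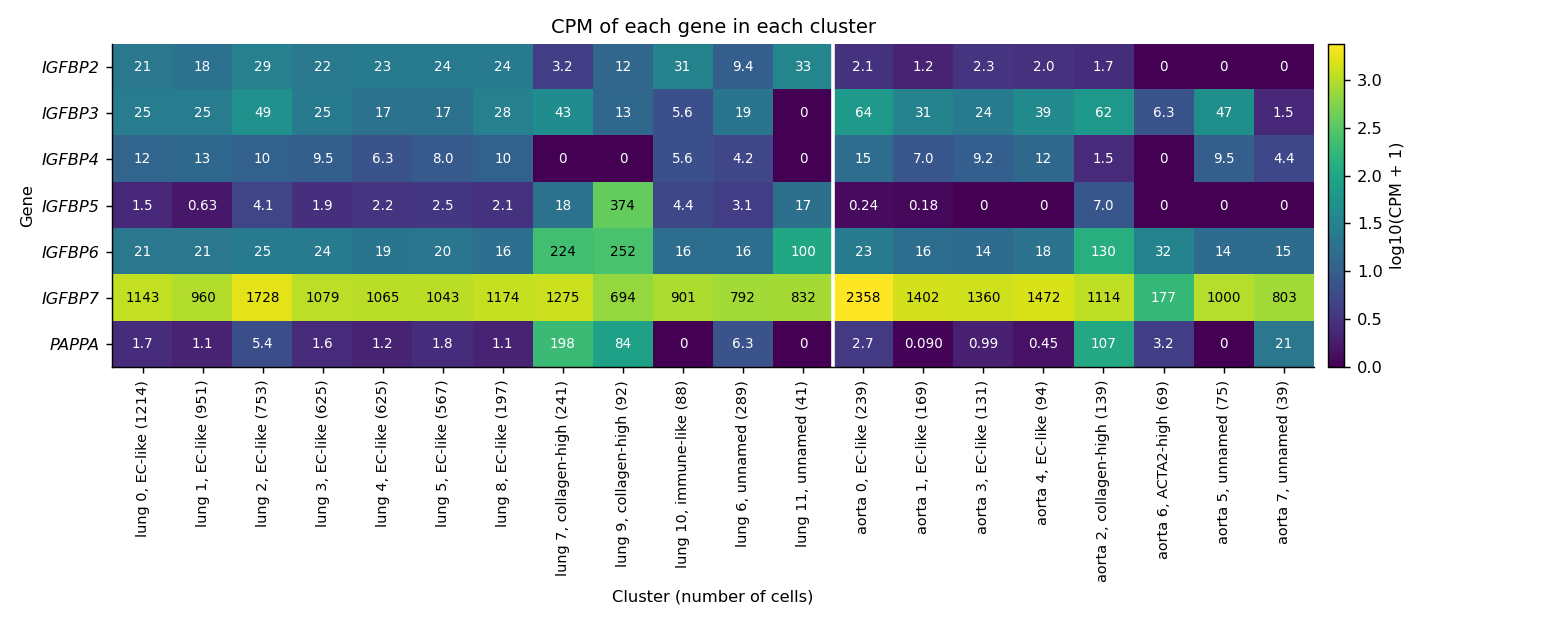
CPM of each gene (rows) in each cluster (columns, with the number of cells), coloured by log10(CPM + 1), for lung cells below the gene limit and aorta cells without it. IGFBP7 is high across nearly all columns, IGFBP5 is high in lung cluster 9, and PAPPA and IGFBP6 are high in lung clusters 7 and 9 and in aorta cluster 2.

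The 7 genes split into 3 patterns between collagen-high and endothelial-like cells of the lung. PAPPA, IGFBP5 and IGFBP6 were higher in collagen-high cells, IGFBP2 was lower, and IGFBP3 and IGFBP7 were within 2-fold. PAPPA was at 168 CPM (155 to 181) in collagen-high cells, 81.2-fold (65.9 to 101) above endothelial-like cells. IGFBP5 was at 112 CPM (102 to 123), 53.4-fold (43.0 to 66.6) higher. IGFBP6, which binds IGF2 more strongly than IGF1, was at 231 CPM (216 to 247), 10.9-fold (9.92 to 11.9) higher. Thus 3 of the 6 members compared were higher, where 6.76% of all 6062 genes compared were, and 1 was lower, where 9.83% were. The median log2 fold of the 6 members compared was 1.92, beside -8.89e-04 over all genes compared. PAPPA and IGFBP5 reached 20 CPM in collagen-high cells alone, and IGFBP4 is not in this median.

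IGFBP2 was the member called lower, at 5.54 CPM (3.43 to 8.47) in collagen-high cells, 4.06-fold (2.64 to 6.58) below endothelial-like cells. IGFBP4, which PAPPA cuts, had no UMI among the 3789536 of the collagen-high cells, which allows up to 0.792 CPM. Set against the endothelial-like level this is at least 12.4-fold lower, but neither class reached 20 CPM and IGFBP4 was not among the genes compared. IGFBP3 was at 35.1 CPM (29.4 to 41.6) and 1.33-fold (1.10 to 1.59) higher. IGFBP7 was at 1122 CPM (1088 to 1156), a ratio of 0.958 (0.929 to 0.989) to the endothelial-like level. Its share of the UMIs of all 7 genes was nevertheless 67.0% in collagen-high cells, against the 93.3% in endothelial-like cells.

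The same contrast was seen cell by cell. Of the collagen-high cells in the lung, 72.7% had a PAPPA UMI, 82.9% an IGFBP6 UMI and 28.2% an IGFBP5 UMI, against 1.89%, 19.1% and 1.16% of endothelial-like cells. The median depths were 10698 and 9580 UMIs per cell. After each cell was thinned to 5900 UMIs, which left out 23 collagen-high and 217 endothelial-like cells, the shares were 57.1% against 1.10% for PAPPA, 65.8% against 11.8% for IGFBP6 and 24.2% against 0.742% for IGFBP5. The thinned shares of IGFBP3 were 16.5% and 12.5%, and those of IGFBP2 were 3.23% and 11.2%.

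The lung cells richest in PAPPA were collagen-high. Of the PAPPA UMIs in the lung, 85.2% (635 of 745) came from collagen-high cells, and so did all 35 cells with 5 or more. For IGFBP5 the share was 78.9% (425 of 539), with 31 of the 33 cells with 5 or more UMIs. For IGFBP6 it was 44.1%, with 58 of 59 such cells. The immune-like cells, with a median of 10340 UMIs, had no PAPPA UMI in 88 cells, which allows up to 3.34 CPM, and their 4 IGFBP5 UMIs came from 1 cell. They had IGFBP6 at 15.6 CPM (8.51 to 26.1), a level whose interval overlapped that of endothelial-like cells. These cells were no clean reference for free RNA, since PECAM1 was at 1138 CPM in them. COL1A1, which chose the collagen-high clusters, was at 16.9 CPM in endothelial-like cells, and the part of free RNA in the low PAPPA and IGFBP5 levels of endothelial-like cells was not tested.

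In the aorta, PAPPA and IGFBP6 were again higher in collagen-high cells, and IGFBP5 stayed below 20 CPM. Below the gene limit, with 21 collagen-high cells, PAPPA was at 225 CPM (163 to 305), 100-fold (32.0 to 504) above endothelial-like cells. IGFBP6 was at 107 CPM (65.6 to 166), 7.93-fold (3.99 to 15.9) higher. IGFBP3 was also at 107 CPM (65.6 to 166), 2.75-fold (1.55 to 4.68) higher. IGFBP7 was at 564 CPM (461 to 682), 2.32-fold (1.90 to 2.85) lower. IGFBP2, IGFBP4 and IGFBP5 were at 0 in these 21 cells, which allows up to 16.1 CPM. With 30 principal components in the clustering in place of 20, the log2 fold of IGFBP7 turned from -1.21 to 0.37 and that of PAPPA moved from 6.64 to 1.21. Of the 4 members compared, 3 were higher, where 16.1% of all 6670 genes compared were, and 1 was lower, where 16.5% were.

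Without the gene limit, with 139 collagen-high cells, PAPPA was at 107 CPM (101 to 114) in 132 of the cells, 86.0-fold (63.6 to 119) higher. IGFBP6 was at 130 CPM (123 to 138), 7.09-fold (6.43 to 7.82) higher. IGFBP3, at 61.99 CPM, was 1.45-fold (1.31 to 1.60) higher and IGFBP7, at 1114 CPM, was 1.57-fold (1.53 to 1.60) lower, so both calls made for these 2 genes below the limit were lost. Among the 4 members compared, 2 were higher, where 7.92% of all genes were, and 0 were lower, where 12.7% were. Below 20 CPM, IGFBP5 was at 7.002 CPM from 61 UMIs in 20 cells, IGFBP4 at 1.49 CPM and IGFBP2 at 1.72 CPM. The median log2 fold of the 4 members compared was 2.22 below the limit and 1.68 without it, beside 0.08 and 0.03 over all genes compared. PAPPA and IGFBP6 reached 20 CPM in collagen-high cells alone.

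**Figure D3:**
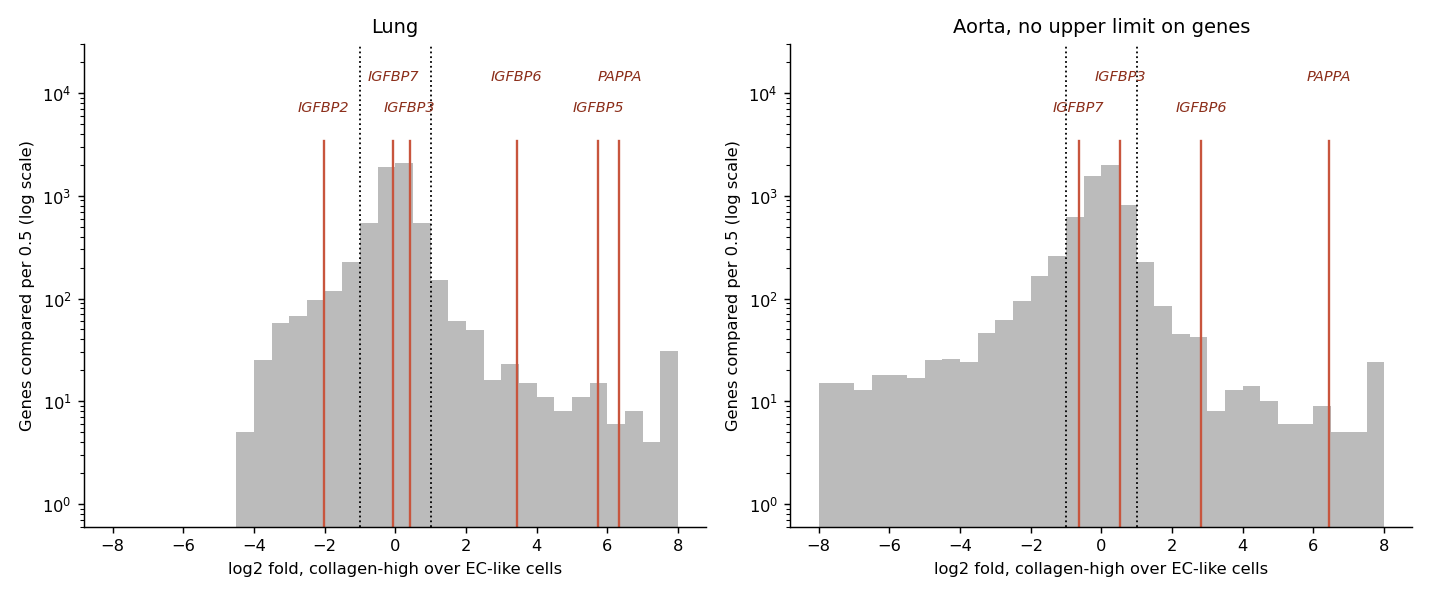
Number of genes (log scale) per 0.5 of log2 fold of collagen-high over endothelial-like cells, over all genes that reached 20 CPM in either class, with the members compared as lines and folds of 2 as dotted lines. Folds beyond 8 on the log2 scale are counted in the end bins. PAPPA lies far to the right in both tissues, at 6.34 in the lung and 6.43 in the aorta, and IGFBP7 lies within the dotted lines.

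The ACTA2-high cells of the aorta, with smooth muscle markers at a summed 4982 CPM and collagen markers at 214 CPM, did not share the collagen-high pattern. Below the gene limit they had no PAPPA UMI, which allows up to 9.72 CPM, and IGFBP6 was at 25.9 CPM (11.2 to 51.1). IGFBP7 was at 165 CPM (123 to 217), and 40 of these 66 cells had none. They were shallow, with a median of 3829 UMIs, and 55 of the 66 had under 1% mitochondrial UMIs, whose part in these levels was not tested. IGFBP7 had no UMI in 30 of the 159 aorta endothelial-like cells below the limit and in 10 of the 88 lung immune-like cells, but in 9 of the 4932 lung endothelial-like and 6 of the 333 lung collagen-high cells. The middle 50% of lung endothelial-like cells lay between 770 CPM and 1452 CPM with a median of 1074 CPM, and that of lung collagen-high cells between 613 CPM and 1423 CPM with a median of 993 CPM.

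Collagen-high cells of the lung were then split by WT1. At least 1 WT1 UMI was seen in 62 of the 333 cells, with 125 UMIs in all. Among the 4932 endothelial-like cells 5 had one, too few to split. The median depths were 11036 UMIs in cells with and 10647 UMIs in cells without a WT1 UMI. IGFBP5 was at 360 CPM (317 to 406) in cells with a WT1 UMI and at 53.0 CPM (45.1 to 61.8) in cells without, a ratio of 6.79 (5.56 to 8.31). It was seen in 83.9% and 15.5% of these cells. When each cell was thinned to 5900 UMIs and WT1 was read after thinning, IGFBP5 was at 287 CPM (220 to 369) in 36 cells with and 78.6 CPM (65.5 to 93.5) in 274 cells without a WT1 UMI, a log2 fold of 1.87 in place of 2.76.

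PAPPA went the other way, at 83.4 CPM (63.8 to 107) with and 188 CPM (173 to 204) without a WT1 UMI, 2.25-fold (1.73 to 2.98) lower. Where 2 or more WT1 UMIs were asked for, its log2 fold was -0.91 in place of -1.17 and it was no longer 2-fold lower. IGFBP3 was at 12.3 CPM (5.63 to 23.4) with and 40.6 CPM (33.7 to 48.4) without, 3.30-fold (1.68 to 7.38) lower. IGFBP7, at 699 CPM with and 1223 CPM without, had a ratio of 0.571 (0.520 to 0.627). IGFBP6 had overlapping intervals, at 216 CPM (184 to 252) and 235 CPM (218 to 253), with a ratio of 0.920 (0.770 to 1.09). IGFBP2 stayed below 20 CPM, at 12.3 CPM and 3.92 CPM, and IGFBP4 was at 0 in both. Of the 5 members compared 1 was higher, where 2.43% of all 5835 genes compared were, and 2 were lower, where 3.22% were. The median log2 fold of the 5 was -0.81, beside -0.05 over all genes compared. IGFBP3 reached 20 CPM in the cells without a WT1 UMI alone.

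The split by WT1 ran along the border of the clusters. Of the 62 cells with a WT1 UMI, 59 were in lung cluster 9, which held 92 cells, and 3 were in lung cluster 7, which held 241. Cluster 9 was led by WT1, IGFBP5, COL3A1, FMOD and MME and cluster 7 by ACTG2, COL6A1, ACTA2, LTC4S and CSPG4, although WT1 and the 7 genes had been left out of the clustering. IGFBP5 was at 374 CPM (338 to 414) in cluster 9 and 17.9 CPM (13.3 to 23.6) in cluster 7. PAPPA was at 83.9 CPM (66.9 to 104) in cluster 9 and 198 CPM (182 to 215) in cluster 7. IGFBP7 was at 694 CPM against 1275 CPM and IGFBP3 at 13.0 CPM against 43.0 CPM, while IGFBP6 was at 252 CPM (222 to 285) and 224 CPM (207 to 242). These values describe clusters of 1 culture, for which no test was made.

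Within cluster 9 the split by WT1 left little difference in CPM. IGFBP5 was at 380 CPM (335 to 429) in its 59 cells with a WT1 UMI and 363 CPM (300 to 435) in its 33 cells without. PAPPA was at 86.5 CPM (65.9 to 112) and 78.2 CPM (50.6 to 115). Both pairs of intervals overlapped, and the log2 folds were 0.07 for IGFBP5 and 0.15 for PAPPA. IGFBP5 was seen in 84.75% (73.01 to 92.78) of the cells with and 63.64% (45.12 to 79.60) of those without a WT1 UMI. The median depths were 11036 and 9818 UMIs. A cell without a WT1 UMI may still hold WT1 transcripts that were not captured, as WT1 was at 122 CPM in the whole cluster. Mural cell markers differed along with the split, with smooth muscle markers at a summed 2713 CPM with and 3731 CPM without a WT1 UMI and pericyte markers at 196 CPM and 371 CPM. Fibroblast markers were at 1414 CPM and 406 CPM. Of the 5 mesothelial markers found by symbol, WT1 alone was seen in the cells with a WT1 UMI, at 171 CPM, and the other 4 were at 0 there. In the cells without, 2 of the 5 were seen, at a summed 4.25 CPM.

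**Figure D4:**
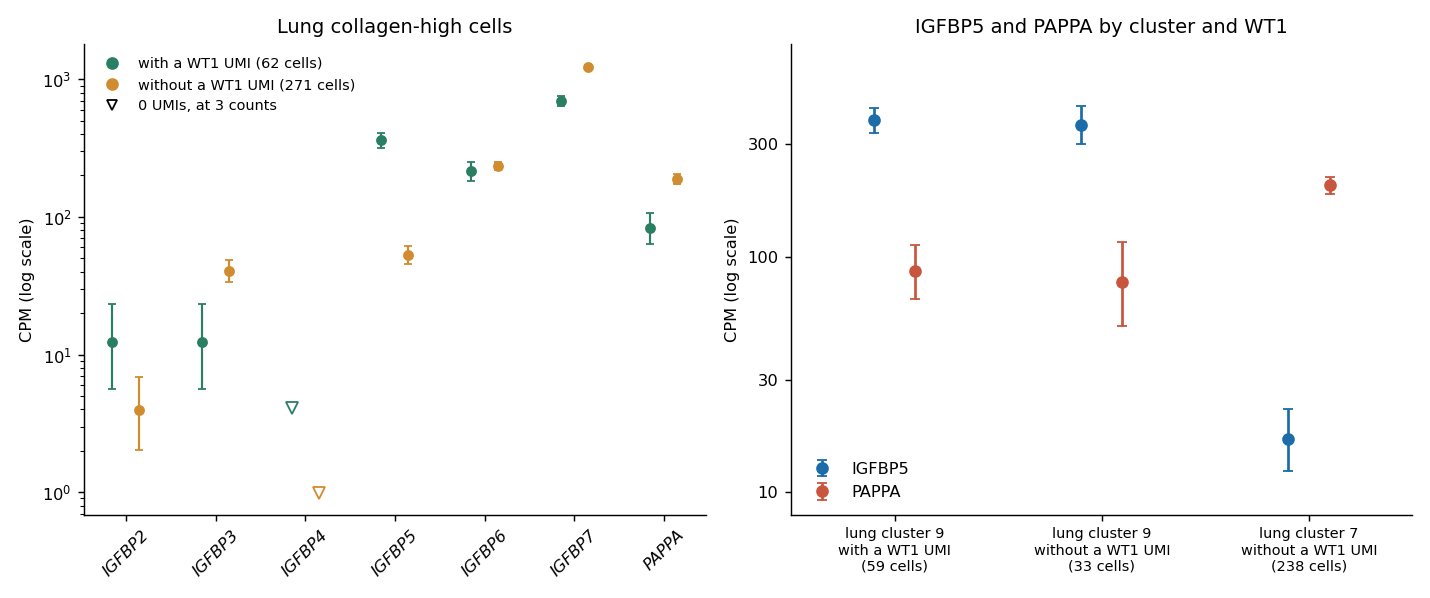
Left, CPM (log scale) of the 7 genes in lung collagen-high cells with and without a WT1 UMI. Right, CPM (log scale) of IGFBP5 and PAPPA by cluster and WT1, with exact Poisson 95% intervals as bars and open triangles at the limit of 3 counts where no UMI was counted. IGFBP5 is near 360 CPM in both parts of cluster 9 and at 16.8 CPM in the WT1-negative cells of cluster 7.

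Cells with UMIs of both IGFBP5 and PAPPA were a larger share of cluster 9 than of cluster 7, as were cells with any IGFBP5 UMI. IGFBP5 was seen in 77.2% of cluster 9 and 9.54% of cluster 7, and PAPPA in 51.1% and 80.9%. Whether the genes of a pair were counted together more often than such single-gene shares would give was not tested. In cluster 9, 36 of 92 cells had UMIs of both genes, 35 had IGFBP5 alone, 11 had PAPPA alone and 10 had neither, and the richest cell held 36 IGFBP5 UMIs. In cluster 7, 19 of 241 cells had both, 4 had IGFBP5 alone, 176 had PAPPA alone and 42 had neither. Cells with 5 or more PAPPA UMIs made up 14.1% of cluster 7 and 1.09% of cluster 9. IGFBP6 and PAPPA were counted together in 166 of the 241 cells of cluster 7 and in 39 of the 92 cells of cluster 9. In the aorta without the gene limit they were counted together in 129 of the 139 collagen-high cells, at a median depth of 62295 UMIs. The 20 cells with IGFBP5 all had PAPPA as well, but so did 132 of the 139 cells.

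**Figure D5:**
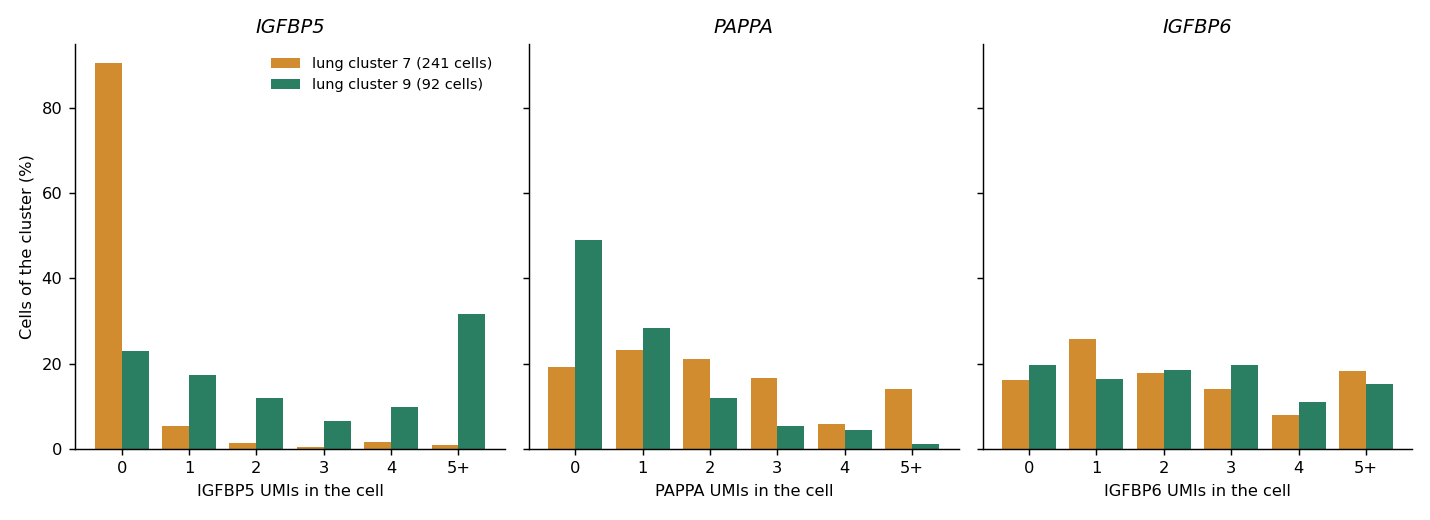
Share of the cells (%) of lung clusters 7 and 9 with 0, 1, 2, 3, 4 or 5 and more UMIs of IGFBP5, PAPPA and IGFBP6, with bars coloured by cluster. IGFBP5 was at 0 UMIs in 90.5% of cluster 7 and 22.8% of cluster 9, PAPPA at 0 in 19.1% and 48.9%, and IGFBP6 had nearly the same spread in both.

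In the aorta the split by WT1 could only be made without the gene limit, since none of the 21 collagen-high cells below it had a WT1 UMI. There 8 of 139 cells had one. IGFBP5 was at 12.3 CPM (4.96 to 25.4) in these 8 cells and 6.63 CPM (4.98 to 8.65) in the other 131, with overlapping intervals. PAPPA was at 67.0 CPM and 110 CPM, a ratio of 0.609 (0.428 to 0.842). IGFBP3 was at 98.7 CPM and 59.4 CPM, and IGFBP6 at 116 CPM and 131 CPM.

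Between the tissues, the endothelial-like cells differed by 2-fold or more in IGFBP2 alone among the 4 members compared, joined by IGFBP6 under 2 other settings. IGFBP2 was at 22.5 CPM in the lung and at 0 in the aorta below the gene limit, at least 9.97-fold higher in the lung with the aorta set at 3 counts. Without the limit it was 12.2-fold (9.49 to 15.9) higher. This made 1 of 4 members higher, where 3.34% of all 6078 genes compared were below the limit and 1.29% of 5908 without it. None of the 4 was lower, where 6.22% and 3.13% of all genes were. IGFBP3 had a ratio of lung to aorta of 0.676 (0.513 to 0.910) below the limit and 0.615 (0.571 to 0.662) without it. IGFBP7 had ratios of 0.896 (0.854 to 0.941) and 0.670 (0.662 to 0.677), and IGFBP6 of 1.57 (0.991 to 2.67) and 1.17 (1.06 to 1.29). With cells under 1% mitochondrial UMIs removed, IGFBP6 was at 9.12 CPM in the aorta and passed 2-fold (log2 fold 1.22), as it did with classes set cell by cell (1.16), where the log2 fold of IGFBP2 was 2.47. The median log2 fold of the 4 members compared was 0.25 below the limit and -0.18 without it, beside -0.01 and -0.06 over all genes compared. IGFBP2 and IGFBP6 reached 20 CPM in the lung alone. IGFBP2 was found in every endothelial-like lung cluster at 17.5 CPM or more and was at most 2.27 CPM in those of the aorta without the limit. Tissue, culture and library cannot be told apart in these data.

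Of the growth factors that the IGFBPs bind, IGF1 was below 20 CPM in both classes, and IGF2 was not found by symbol. The receptor gene INSR, the adaptor genes IRS1 and IRS2, the liver-made binder IGFBP1 and its partner IGFALS also stayed below 20 CPM in both classes of the lung. IGF1R, the receptor that signals, was at 27.4 CPM in lung collagen-high and 33.9 CPM in endothelial-like cells, a ratio of 0.811 (0.659 to 0.989). IGF2R, which clears IGF2, was 2.39-fold (2.08 to 2.74) higher in collagen-high cells, at 64.9 CPM against 27.2 CPM. In the aorta IGF2R was 2.57-fold (1.52 to 4.19) higher below the gene limit and 1.51-fold (1.35 to 1.68) without it. Of 5 adaptor genes that act below the receptors, 2 were compared in the lung and both were within 2-fold, GRB10 at 109 CPM and 87.8 CPM and SHC1 at 24.8 CPM and 33.8 CPM. GRB10 was 2.003-fold (1.203 to 3.21) higher in aorta collagen-high cells below the gene limit, at 124 CPM against 61.6 CPM, and 1.49-fold without it. Of 3 IGF2BP genes, which encode binders of IGF2 mRNA, IGF2BP2 was compared and was within 2-fold in the lung, at 47.8 CPM and 67.0 CPM. It was lower in aorta collagen-high cells, at 21.5 CPM against 61.2 CPM without the limit and at 0 against 62.4 CPM below it. Those of these genes that were compared did not differ by 2-fold between lung collagen-high cells with and without a WT1 UMI. Nor did they between the endothelial-like cells of the tissues, and genes below 20 CPM were not compared.

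Among 12 genes of IGFBP proteases and their inhibitors, 9 could be compared in the lung. Of these, 4 were higher in collagen-high cells, where 6.76% of all 6062 genes compared were, and 2 were lower, where 9.83% were. The metalloprotease genes ADAM12, at 112 CPM against 0.774 CPM (145-fold, 104 to 206), and ADAM9, at 150 CPM against 22.0 CPM (6.81-fold, 6.15 to 7.55), were higher, as were the serine protease gene HTRA1, at 389 CPM against 141 CPM (2.77-fold, 2.61 to 2.93), and the urokinase gene PLAU (2.56-fold, 2.02 to 3.21). The gelatinase gene MMP2, at 80.5 CPM against 211 CPM (2.62-fold, 2.34 to 2.95), and the complement protease gene C1S (5.04-fold, 3.09 to 8.84) were lower. CTSD, a lysosomal protease gene, was at 224 CPM and 164 CPM. In the aorta without the gene limit 3 of 9 were higher, ADAM12 (90.5 CPM against 3.09 CPM), ADAM9 (158 CPM against 26.4 CPM) and PLAU (82.8 CPM against 21.4 CPM), and 3 were lower, C1S, MMP2 (62.2 CPM against 262 CPM) and C1R. HTRA1 was within 2-fold there, at 289 CPM against 206 CPM. Below the limit 3 of 8 were higher, ADAM12, ADAM9 and PLAU, and 3 were lower, C1S, MMP2 and CTSD. Between lung cells with and without a WT1 UMI none of 8 differed by 2-fold, with HTRA1 at 633 CPM and 330 CPM (1.92-fold, 1.71 to 2.14). Between the endothelial-like cells of the tissues 1 gene, PLAU, was lower in the lung, with ratios of 0.309 below the limit and 0.432 without it.

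On a list of genes with an IGFBP-type N-terminal domain that are not IGFBPs, more were lower than higher in collagen-high cells. The same was so over all genes compared. The list left out HTRA1, which was counted with the proteases above and was higher in lung collagen-high cells. Of 12 listed, 6 were compared in the lung. In collagen-high cells 4 were lower, where 9.83% of all 6062 genes compared were, and 1 was higher, where 6.76% were. CCN2, a connective tissue growth factor, was at 577 CPM against 1702 CPM (2.95-fold lower, 2.83 to 3.08), the endothelial gene ESM1 at 297 CPM against 677 CPM (2.28-fold lower, 2.15 to 2.42) and CRIM1 at 283 CPM against 642 CPM (2.27-fold lower, 2.13 to 2.41). CCN5 was also lower, at 7.13 CPM against 64.5 CPM, and HTRA3 was the gene that was higher, at 32.5 CPM against 0.694 CPM. CCN1 was within 2-fold, at 377 CPM and 474 CPM. In the aorta without the gene limit 3 of 6 were lower, CCN2 (301 CPM against 2054 CPM), CCN5 (6.54 CPM against 185 CPM) and CRIM1 (149.6 CPM against 626 CPM), and 0 were higher, and below it 4 of 7 were lower, CCN2, CCN5, ESM1 and CRIM1, and 2, CCN3 and HTRA3, were higher. In the split by WT1 only CCN4 among the genes of this list differed by 2-fold, at 38.3 CPM with and 9.48 CPM without a WT1 UMI (4.04-fold, 2.31 to 7.03). Between the endothelial-like cells of the tissues CCN3 and CCN5 were lower in the lung under both limits and ESM1 below the gene limit. The calls on these lists have the same backgrounds as those of the members, and no set test was made. Over all genes compared, 7.92% were higher and 12.7% lower in aorta collagen-high cells without the gene limit. Below it the shares were 16.1% and 16.5%. With a WT1 UMI, 2.43% were higher and 3.22% lower in lung collagen-high cells. In lung over aorta endothelial-like cells, 3.34% were higher and 6.22% lower below the limit, and 1.29% and 3.13% without it.

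The genes whose levels followed those of the members most closely were ranked over the 21 clusters of both libraries without the gene limit, by Pearson's r of log2(CPM + 10) among 7807 genes. Closest to IGFBP5 were CRISPLD2 (r = 0.95), MME (0.95) and WT1 (0.92). IGFBP5 ranged from 0 to 259 CPM, with its top in the lung cluster led by WT1 and IGFBP5, and its r values lean on that cluster. Closest to IGFBP6 were ROR2 (0.97), EMB (0.97) and SFRP2 (0.96), and closest to IGFBP7 were FCGRT (0.94), PLPP1 (0.93) and KDELR1 (0.92). Closest to PAPPA were a gene without a symbol, PCDH18 and BGN, each with r = 0.98. PAPPA and IGFBP6 were high in the collagen-high clusters, and their r values lean on those. IGFBP7 ranged from 177 to 2358 CPM, with its lowest level in the shallow ACTA2-high cluster of the aorta. IGFBP2, IGFBP3 and IGFBP4 did not reach 100 CPM in a cluster and were not ranked. The clusters share 2 libraries and differ widely in depth, so these values describe the clusters and carry no test.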

How the data were processed

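Counts were the UMIs per gene and cell barcode that the authors deposited for each library, made with 10x 3′ v3 chemistry and, per the submitters' processing notes, Cell Ranger 3.0.2, on the Ensembl annotation of Sscrofa11.1. The barcodes carried the suffixes of a joint run, and whether depth was equalised between the libraries is not given in the sources used here. Both libraries were used as deposited, 1185 aorta and 5946 lung barcodes with 46080859 and 57213236 UMIs, of which 5 barcode sequences were shared.

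Cells with over 200 and under 5000 genes and under 30% mitochondrial UMIs were kept, the limits in the study's methods, and the aorta values were repeated without the upper limit, since it left 246 of 955 cells. Each library was clustered with Seurat 5.3.0 in R 4.3.3 on 2000 variable genes, from which the members, WT1 and all listed genes were taken out, with 20 principal components and resolution 1. Clusters were collagen-high where COL1A1 and COL1A2 reached 20 CPM and 2-fold over the other cells, ACTA2-high or immune-like where at least 3 markers were raised, and endothelial-like where at least 3 of 13 markers were held at 0.25 or more of their highest cluster. A cluster whose median UMI count was under that of its library divided by 3, and whose 10 leading genes held no marker of the class it would have joined, stayed unnamed. Doublets were looked for with Scrublet in scanpy 1.11.5, which marked 3 aorta and 4 lung cells. The caller did not work in the lung (0.0704% of cells), and no cell was removed as a doublet.

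UMIs were summed per class (Python 3.11.15, numpy 2.4.6, pandas 2.3.3, scipy 1.17.1, with figures in matplotlib 3.10.9). Levels have exact Poisson, shares exact binomial (Clopper-Pearson) and ratios exact conditional binomial intervals at 95%, for counting error only, and a level of 0 has a limit of 3 counts. With 1 library per tissue no test was made. The scripts were tested on simulated data. The members and lists were chosen with earlier results of these data known. The members were named in every class, genes of the lists where they reached 100 CPM in a class or where a count of 5 or fewer singled them out, and genes alike to a member as the 3 with the highest Pearson's r among genes that reached 20 CPM in a cluster. Of the listed genes, 5 were not found by symbol (AURKA, IGF2, KRT19, MSLN and UPK3B). Of the 22804 features 7821 were named by an Ensembl ID alone, 1051 of which could be given a symbol, so these genes may be among the rest. Alternatives covered the filters, the clustering, the CPM minimum, the averaging, thinning to 5900 UMIs and the definition of the WT1 split.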

Additional observations from a re-analysis of the deposited data

How the results depend on the processing

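Of 286 log2 folds of members recomputed under other settings, 255 stayed inside the 95% counting interval of the value as reported, 28 moved out of it and 3 turned direction. With 30 principal components the log2 fold of IGFBP7 between aorta collagen-high and endothelial-like cells was 0.372 in place of -1.21, and that of PAPPA fell to 1.21 from 6.64. Under splits chosen after seeing the data, the log2 folds with against without a WT1 UMI within the lung cluster with the highest WT1 level were 0.077 for IGFBP3 and 0.146 for PAPPA, in place of -1.72 and -1.17. That of IGFBP5 was 0.066, in place of 2.76 over all lung collagen-high cells, 1.87 after thinning and 4.38 between the clusters themselves. Within that cluster 0 members were 2-fold higher and 0 were 2-fold lower. The cause was not tested. Counts of members in this section stand without the share of all genes called at the same setting, so they show only how the counts moved. With a minimum of 5 CPM, 2 members were lower in lung collagen-high cells (IGFBP2 and IGFBP4) and 2 were higher with a WT1 UMI (IGFBP2 and IGFBP5). With a minimum of 100 CPM, fewer genes were compared, and 0 members were lower in lung collagen-high cells, 1 (PAPPA) was lower with a WT1 UMI and 0 were higher in lung endothelial-like cells. Where 2 or more WT1 UMIs were asked for, 1 member, IGFBP3, was lower. In the aorta 0 members were lower in collagen-high cells with 10 or 30 principal components, with no upper limit on genes, with cells under 1% mitochondrial UMIs removed or with the listed genes left in the variable genes, so the lower IGFBP7 there rests on the settings. Between endothelial-like cells, 2 members were higher in the lung with cells under 1% mitochondrial UMIs removed, 2 with classes set cell by cell (IGFBP2 and IGFBP6), and 1, IGFBP3, was lower with a mean over cells. Of 120 counts of members 104 stayed within 1.5 times, and 295 of 336 levels stayed inside their interval while 41 moved out of it. With 21 aorta collagen-high cells below the gene limit, a gene with no UMI there may still have a level of up to 16.1 CPM. No paired analysis was possible because each tissue has 1 library.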
